A study of Mus musculus with 4 samples.

Results

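Ribosome biogenesis genes were followed in cultured tumour-initiating stem-like cells (TICs) from mouse liver tumours, treated with a retinoid, a histone deacetylase inhibitor or both. The 48 genes were taken as a fixed list of nucleolar, rRNA processing and RNA polymerase I genes, and all 48 were found by gene symbol among the 23359 rows of the expression table. The cells came from tumours of C57BL/6 mice. The groups were cells given all-trans retinoic acid (ATRA, a ligand of the retinoic acid receptors made from vitamin A) at 5 µg/ml, cells given suberoylanilide hydroxamic acid (SAHA, or vorinostat, which blocks histone deacetylases) at 0.5 µg/ml, cells given ATRA and SAHA together, and vehicle controls. The labels give 16 hours for the treated cells and no time for vehicle, and the medium of these cultures contained serum, EGF and dexamethasone. The sources used here do not say how many tumours or isolates the cells came from. Each group had 1 library, so no difference below has a replicate check, and none carries a p-value or an error.

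Ribosome biogenesis starts in the nucleolus, where RNA polymerase I copies the ribosomal DNA into a long precursor rRNA. Small nucleolar ribonucleoproteins (snoRNPs) modify that precursor, box C/D particles by methylation and box H/ACA particles by pseudouridylation. A large assembly, the small subunit processome, folds and cuts the part that becomes the small subunit, while other factors, among them the PeBoW complex, mature the large subunit. Growing and tumour cells make many ribosomes, and the transcription factor MYC is a known activator of many genes in this pathway.

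Levels are given in FPKM, which divides a gene's fragments by its transcript length and by the library's mapped fragments, so that levels can be compared between genes. Differences are given on the log2(FPKM + 1) scale, which understates the difference of low genes. Folds are plain ratios of FPKM. A gene was counted in a comparison when its mean over the 4 libraries was at least 1 FPKM, which 8616 genes reached, and it was called higher or lower at a difference of 1 or more, which is 2-fold on this scale. Of the ribosome biogenesis genes, 47 were counted. Gar1, at a mean of 0.81 FPKM, was the exception, and 6 counted genes were below 1 FPKM in at least 1 library. In bulk RNA, fewer cells with a transcript and less transcript per cell cannot be told apart.

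The libraries were of like depth. By an estimate from the lowest steps of the values, 1 FPKM over 1 kilobase stood for 95.3 to 102 fragments, and the lowest value of any ribosome biogenesis gene (Gar1 with SAHA) for about 27 fragments. Composition differed: the row Gm20594 held 33.9% of all FPKM with SAHA and 16.6% with ATRA, 10.3% with both compounds and 18.0% with vehicle. Rescaling without small RNAs and the 10 highest rows moved the median of all counted genes from -0.12 to 0.23 for SAHA against vehicle, and from 0.14 to -0.33 for the combination against SAHA. Differences of the list are therefore also given relative to that median. Of 7 hepatocyte markers, 0 reached a mean of 1 FPKM, and their summed level was 0.236 FPKM with ATRA, 0.411 with SAHA, 0.257 with both and 0.196 with vehicle. Of 6 mesenchymal markers 4 did, and of 5 bile duct and progenitor markers 3 did. The summed mesenchymal level was 507 FPKM with ATRA, 353 with SAHA and 385 with both, against 666 with vehicle. Within it Sparc was at 23.8 FPKM with ATRA, 2.65 with SAHA and 2.68 with both, against 33.4 with vehicle. Prrx1 was at 9.02 FPKM with ATRA, 0.177 with SAHA and 0.161 with both, against 8.97 with vehicle. Vim was at 432 FPKM with ATRA, 319 with SAHA and 362 with both, against 562 with vehicle, and Cd44 at 42.2, 31.5 and 20.97 FPKM with ATRA, SAHA and both, against 61.8 with vehicle. Both SAHA libraries were thus low for Sparc and Prrx1, at nearly equal levels. They were also below ATRA and vehicle for the genes called lower with SAHA below, but not always equally. Ubtf was at 0.738 FPKM with SAHA and 0.667 with both, and Tcof1 at 1.33 and 4.04. The bile duct and progenitor markers summed to 572 FPKM with ATRA, 942 with SAHA and 436 with both, against 340 (339.8) with vehicle, nearly all from Spp1 at 566, 939 and 433 FPKM against 336 with vehicle. Krt7 and Sox9 also reached a mean of 1 FPKM and were lower with SAHA. Krt7 was at 2.88, 1.83 and 2.32 FPKM with ATRA, SAHA and both, against 2.99 with vehicle. Sox9 was at 2.69, 0.910 and 0.857 FPKM, against 1.19 with vehicle. Endothelial, lymphocyte and erythroid markers had 0 at that mean, and Cd68 was the macrophage marker that reached it, at 2.41 FPKM with ATRA, 5.20 with SAHA, 4.26 with both and 1.89 with vehicle. The part of these markers in the results below was not tested.

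The median of the 48 genes was 4.18 FPKM with ATRA, 3.44 with SAHA and 4.82 with both, against 5.57 with vehicle. In the deposited scaling, the SAHA library held the lowest of the 4 values for 29 of the 48 genes, against 37.3% of all counted genes. The vehicle library held the highest for 23 of them (26.0% of all counted genes) and the combination for 19 (35.9%). Such an order of libraries depends on the scaling. The combination stood above SAHA for 40 of the 47 counted genes in the deposited scaling and for 15 after rescaling without small RNAs and the 10 highest rows. Levels ran over a wide range within each library, from 0.553 to 235 FPKM with ATRA, from 0.220 to 110 with SAHA and from 0.551 to 173 with both, against 0.781 to 216 with vehicle. Npm1 was the highest gene in all 4.

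**Figure D1:**
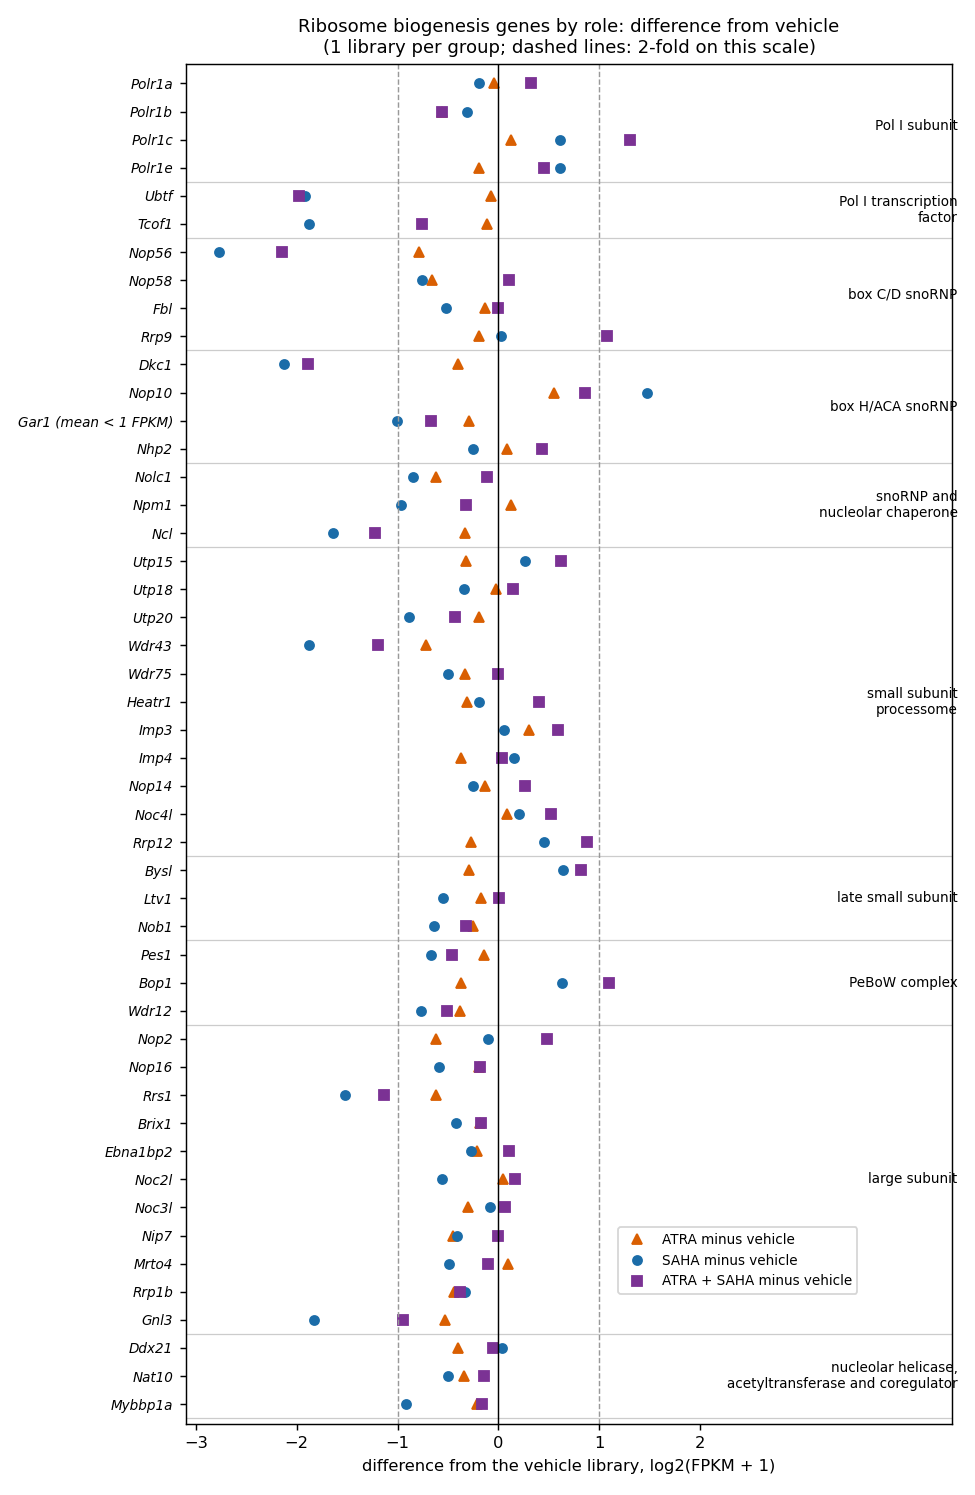
Difference from the vehicle library in log2(FPKM + 1) for the 48 ribosome biogenesis genes, grouped by role, with ATRA as triangles, SAHA as circles and the combination as squares (1 library per group, so there are no error bars). ATRA points lie between -0.79 and 0.55, and the SAHA points reach from -2.77 for Nop56 to 1.47 for Nop10.

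With ATRA alone no counted gene of the list was past 2-fold, but most stood slightly below vehicle. Of the 47 counted genes, 39 (83.0%) had a difference below 0, against 50.1% of all counted genes. None of the 47 was called higher or lower, where 0.917% of counted genes were called higher and 1.20% lower. The median difference was -0.25, against 0.00 (-0.000549) for all counted genes, and 8 of 47 (17.0%) were lower by 0.5 or more, against 3.81%. That smaller mark was chosen after the values were seen. After rescaling without small RNAs and the 10 highest rows, 45 of 47 were below 0, but the median of all counted genes also moved down, to -0.12. The list's median then stood 0.24 below that of all genes (-0.24), close to the 0.25 without rescaling (-0.25).

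With SAHA alone, single genes of the pathway differed by much more than with ATRA, in both directions. In the deposited scaling the share of the list called lower was close to that of all genes, and the share called higher was smaller. Of the 47, 8 (17.0%) were called lower, against 16.0% of all counted genes, and 1 (2.13%) was called higher, against 7.88%. After rescaling 4 were higher, against 17.1% of counted genes, and 8 (17.0%) lower, against 10.3%, so the share called lower then stood above that of all genes. The 8 were Nop56, Dkc1, Ubtf, Tcof1, Wdr43, Gnl3, Ncl and Rrs1, and Nop10 was the higher gene. These same 8 genes were called lower after centring the libraries and after rescaling them. Below 0 were 35 of the 47 (74.5%), against 56.6% of all counted genes. After rescaling 26 were below 0, and the median of all counted genes was then 0.225. The median of the list was -0.42, against -0.12 for all counted genes. Relative to all genes the list stood at -0.30 in the deposited scaling and -0.30 after rescaling.

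With both compounds the list's median was close to vehicle in the deposited scaling. Of the 47, 6 (12.8%) were called lower, against 12.6% of all counted genes, and 3 (6.38%) higher, against 11.1%. The lower genes were Nop56, Ubtf, Dkc1, Ncl, Wdr43 and Rrs1, each of which was also lower with SAHA alone, in a comparison that shares the vehicle library. The higher genes were Polr1c, Bop1 and Rrp9. The median was -0.01 (-0.00652), against 0.04 for all counted genes. After rescaling the median was -0.17, against -0.10, with 31 of 47 below 0. There 7 were called lower, against 15.0% of counted genes, and 1 higher, against 7.8%.

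**Figure D2:**
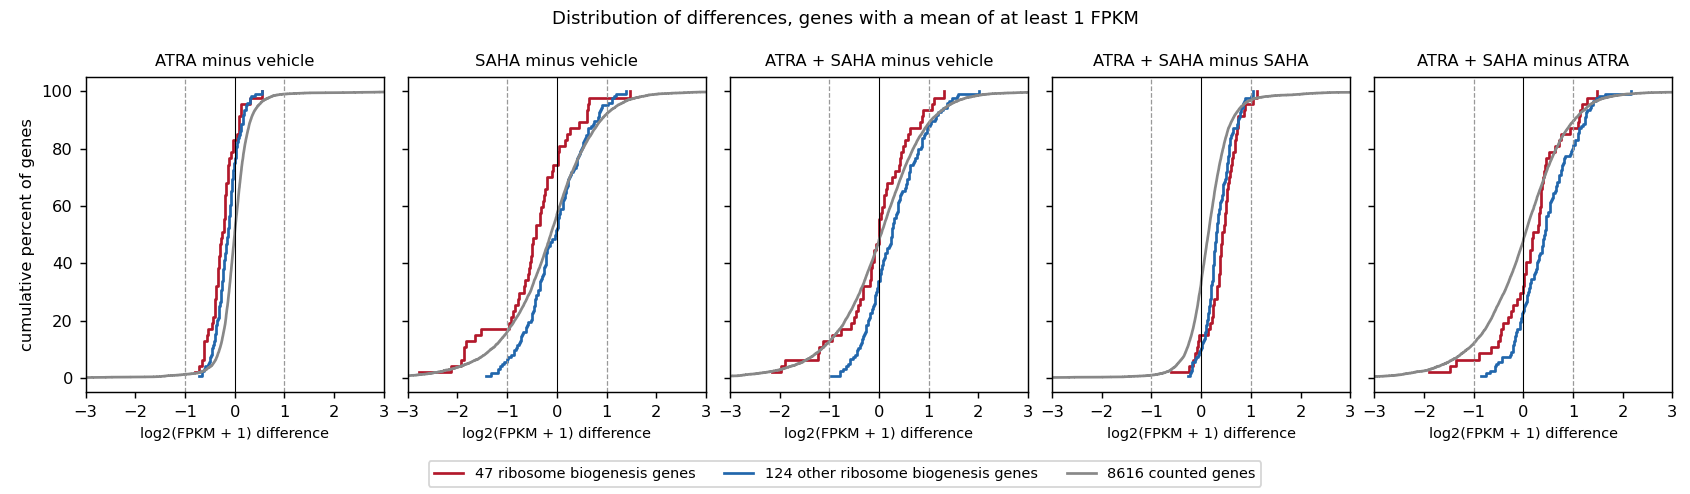
Cumulative percent of genes at or below each log2(FPKM + 1) difference, for the 47 counted ribosome biogenesis genes, the 124 other counted ribosome biogenesis genes and all 8616 counted genes, in 5 comparisons; dashed lines mark 2-fold. The curve of the 47 genes lies left of all genes for ATRA minus vehicle (medians -0.25 and -0.00) and right of it for the combination minus SAHA (0.42 and 0.14).

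Counts by role below go beside the shares of all counted genes. With SAHA 16.0% were called lower and 7.88% higher, with both 12.6% and 11.1%, and with ATRA 1.20% and 0.917%. Roles of 3 or 4 genes are too small to be told apart from those shares. RNA polymerase I transcription factors, a role of 2 genes here, had the lowest median of the roles with SAHA. Of the other ribosome biogenesis genes, the 8 counted in the polymerase I machinery had a median of -0.03 with SAHA. Ubtf encodes UBF, the HMG-box protein that keeps ribosomal DNA open for the polymerase (chromosome 11, 102304560 to 102319742, minus strand, mm10). It was at 5.23 FPKM with ATRA, 0.738 with SAHA and 0.667 with both, against 5.57 with vehicle. Both SAHA libraries were low and neither overlapped the other pair: Ubtf was 7.54-fold lower with SAHA than with vehicle, and 7.84-fold lower with both than with ATRA. Tcof1 encodes treacle, a nucleolar scaffold that binds UBF and the polymerase. It was at 6.89 FPKM with ATRA, 1.33 with SAHA and 4.04 with both, against 7.53 with vehicle. Tcof1 was thus 5.67-fold lower with SAHA and 1.86-fold lower with both compounds, and the combination was 3.05-fold higher than SAHA alone.

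Of the 4 polymerase I subunit genes, 0 were past 2-fold with SAHA or with ATRA, and Polr1c was higher with both. Polr1c encodes a subunit shared with RNA polymerase III (chromosome 17, 46243920 to 46248054, minus strand). It was at 8.03 FPKM with ATRA, 11.6 with SAHA and 19.4 with both, against 7.26 with vehicle, and was 2.67-fold higher in the combination. Polr1a, which encodes the largest subunit, was at 4.16 FPKM with ATRA, 3.65 with SAHA and 5.65 with both, against 4.30 with vehicle, with no difference past 2-fold. Polr1b, the second-largest subunit, was at 2.71 FPKM with ATRA, 3.41 with SAHA and 2.71 with both, against 4.47 with vehicle. Its value was highest with vehicle. The level of Polr1c over that of Polr1a was 1.93 with ATRA, 3.19 with SAHA and 3.43 with both, against 1.69 with vehicle. Polr1e, which encodes a polymerase-associated initiation subunit, was low throughout, at 0.553 FPKM with ATRA, 1.73 with SAHA and 1.43 with both, against 0.781 with vehicle. On plain FPKM it was 2.21-fold higher with SAHA, but its difference on the log2(FPKM + 1) scale was 0.61.

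Of the 4 box C/D snoRNP genes, Nop56 was called lower with SAHA and the others were not past 2-fold there. Nop56 and Nop58 encode the paired core proteins that bridge the methyltransferase to the guide RNA. Nop56 (chromosome 2, 130274430 to 130279313, plus strand) was at 16.6 FPKM with ATRA, 3.48 with SAHA and 5.88 with both, against 29.5 with vehicle. Its level was 1.78-fold lower with ATRA, 8.47-fold lower with SAHA and 5.01-fold lower with both. On the log2(FPKM + 1) scale it had the lowest difference of the list in all 3 comparisons with vehicle, at -0.79, -2.77 and -2.15, while on plain FPKM the fold of Dkc1 was larger with SAHA and those of Ubtf and Dkc1 were larger with both. Nop58 was at 15.7 FPKM with ATRA, 14.6 with SAHA and 27.3 with both, against 25.4 with vehicle. The combination library was thus at the vehicle level for Nop58 and far below it for Nop56. The ratio of Nop56 to Nop58 levels was 1.06 with ATRA, 0.239 with SAHA and 0.215 with both, against 1.16 with vehicle, so it was low in the 2 libraries that had SAHA. Fbl encodes fibrillarin, the methyltransferase itself, and was at 8.87 FPKM with ATRA, 6.53 with SAHA and 9.76 with both, against 9.79 with vehicle. Rrp9, a protein specific to the snoRNP that starts precursor cleavage, was at 4.05 FPKM with ATRA, 4.91 with SAHA and 11.2 with both, against 4.79 with vehicle. Only the combination library was high for Rrp9 among the 4, at 2.34-fold the vehicle level.

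The box H/ACA genes lay on both sides of vehicle with SAHA. Dkc1 encodes dyskerin, the pseudouridine synthase (X chromosome, 75095854 to 75109777, plus strand). It was at 4.10 FPKM with ATRA, 0.547 with SAHA and 0.821 with both, against 5.74 with vehicle, which is 10.5-fold lower with SAHA and 6.99-fold lower with both. Mpp1, on the opposite strand, overlaps the end of Dkc1 by 45 bases and also stood lower with SAHA (log2 difference -1.17). The sources used here do not give the strand setting of the counting, so reads in that overlap cannot be assigned. Nop10 encodes a small protein of the same particle (chromosome 2, 112261926 to 112263269, plus strand). It went the other way, at 15.4 FPKM with ATRA, 30.1 with SAHA and 19.3 with both, against 10.2 with vehicle. The SAHA library was the highest for Nop10, 2.95-fold above vehicle. Gar1, the substrate-release protein, was at 1.01 FPKM with ATRA, 0.220 with SAHA and 0.551 with both, against 1.46 with vehicle, a 6.61-fold lower level with SAHA. Nhp2, the fourth protein, was at 10.5 FPKM with ATRA, 8.09 with SAHA and 13.6 with both, against 9.84 with vehicle. For each unit of Dkc1 level there were 3.76 of Nop10 with ATRA, 55.0 with SAHA and 23.5 with both, against 1.78 with vehicle.

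The promoters of genes on opposite sides of vehicle with SAHA are shown next, Nop56 and Wdr43 as lower genes, then Nop10 and Polr1c as genes on the higher side. Each run covers 250 bases before and 50 after the start of the gene, on the gene's strand, 5′ to 3′, from RefSeq on GRCm38.p6: chr2:130274162-130274461 for Nop56 (plus strand), chr17:71615965-71616264 for Wdr43 (plus strand), chr2:112261676-112261975 for Nop10 (plus strand) and chr17:46247996-46248295 for Polr1c (minus strand). Capitals mark the motifs searched on both strands: the E-box CACGTG that MYC binds, the GC box GGGCGG, the CCAAT box CCAAT, the ETS core CCGGAAG and the TATA box TATAAA.
Nop56: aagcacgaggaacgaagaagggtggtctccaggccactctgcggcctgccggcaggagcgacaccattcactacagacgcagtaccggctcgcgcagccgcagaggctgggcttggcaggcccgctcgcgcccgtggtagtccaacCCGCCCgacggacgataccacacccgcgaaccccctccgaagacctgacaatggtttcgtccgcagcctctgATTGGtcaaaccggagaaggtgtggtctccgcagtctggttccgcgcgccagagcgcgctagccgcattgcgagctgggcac
Wdr43: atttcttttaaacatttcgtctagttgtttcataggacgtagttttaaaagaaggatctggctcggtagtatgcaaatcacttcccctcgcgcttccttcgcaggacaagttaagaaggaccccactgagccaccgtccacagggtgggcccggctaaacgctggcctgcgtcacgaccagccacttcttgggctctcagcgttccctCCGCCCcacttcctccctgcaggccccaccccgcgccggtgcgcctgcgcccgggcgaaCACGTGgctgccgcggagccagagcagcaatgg
Nop10: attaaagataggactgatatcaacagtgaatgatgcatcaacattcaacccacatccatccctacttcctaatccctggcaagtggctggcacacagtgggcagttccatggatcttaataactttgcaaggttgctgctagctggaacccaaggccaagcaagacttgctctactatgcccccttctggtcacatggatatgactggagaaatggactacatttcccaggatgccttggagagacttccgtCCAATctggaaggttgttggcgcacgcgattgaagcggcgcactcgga
Polr1c: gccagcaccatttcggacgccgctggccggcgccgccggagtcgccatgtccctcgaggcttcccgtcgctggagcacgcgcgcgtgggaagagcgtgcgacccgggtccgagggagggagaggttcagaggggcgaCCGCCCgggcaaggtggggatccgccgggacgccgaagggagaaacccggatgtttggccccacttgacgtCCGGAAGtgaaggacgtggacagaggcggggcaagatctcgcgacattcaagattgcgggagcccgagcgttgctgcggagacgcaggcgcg

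The table of promoters held an entry for 42 of the 48 genes, and those without one were Tcof1, Rrp12, Fbl, Bop1, Rrs1 and Npm1. An E-box lay in a promoter of 8 of the 42 genes (19.0%), against 12.4% of counted genes and 8.09% of all genes in the table. The 8 were Imp4, Ltv1, Mybbp1a, Nop2, Pes1, Utp18, Utp20 and Wdr43, of which Wdr43 was called lower with SAHA. The ETS core was in 14 of 42 (33.3%), against 23.2% of counted genes. The GC box was in 71.4% against 72.4% of counted genes, the CCAAT box in 38.1% against 44.5% and the TATA box in 4.76% against 8.18%. These are letter matches in a 300-base window and describe the sequences.

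Of the 3 nucleolar chaperone genes, Ncl was called lower with SAHA, and Npm1 and Nolc1 were not past 2-fold. Npm1 encodes nucleophosmin, an abundant histone and ribosomal protein chaperone. It was at 235 FPKM with ATRA, 110 with SAHA and 173 with both, against 216 with vehicle. Its difference with SAHA was -0.97, just short of the mark. Ncl encodes nucleolin, which binds nascent precursor rRNA, and was at 22.7 FPKM with ATRA, 8.56 with SAHA and 11.8 with both, against 28.9 with vehicle. Both SAHA libraries were low for Ncl, 3.37-fold below vehicle with SAHA alone and 2.44-fold with both. Nolc1, which carries snoRNPs through the nucleolus and Cajal bodies, was at 4.79 FPKM with ATRA, 3.97 with SAHA and 7.27 with both, against 7.92 with vehicle. The single treatments were low for Nolc1 and the combination was close to vehicle.

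The small subunit processome varied from member to member. Wdr43 belongs to the subcomplex that first binds the precursor and links it to transcription. It was at 8.44 FPKM with ATRA, 3.25 with SAHA and 5.79 with both, against 14.6 with vehicle, 4.49-fold lower with SAHA. Its subcomplex partners were not past 2-fold. Wdr75 was at 4.21 FPKM with ATRA, 3.66 with SAHA and 5.55 with both, against 5.58 with vehicle. Utp15 was at 2.17 FPKM with ATRA, 3.74 with SAHA and 5.09 with both, against 2.95 with vehicle, and Heatr1 stood at -0.31, -0.19 and 0.41 on the log2 scale for ATRA, SAHA and both against vehicle. Of the 11 genes of this role, Wdr43 was called lower with SAHA and with both, and 0 were called higher. Of all counted genes, 16.0% were called lower with SAHA and 12.6% with both. Called higher were 7.88% and 11.1%.

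Imp3 and Imp4, which join the precursor to the snoRNP that starts cleavage, differed in level. Imp3 was at 33.7 FPKM with ATRA, 28.2 with SAHA and 41.5 with both, against 27.2 with vehicle, the highest levels of this role. Imp4 was at 3.28 FPKM with ATRA, 5.16 with SAHA and 4.67 with both, against 4.52 with vehicle. Utp20, a large scaffold protein, was at 1.76 FPKM with ATRA, 0.707 with SAHA and 1.34 with both, against 2.15 with vehicle. Utp18, Nop14 and Noc4l lay between -0.34 and 0.52 in the comparisons with vehicle. Rrp12, an export factor of the subunits in yeast, was at 0.664 FPKM with ATRA, 1.75 with SAHA and 2.69 with both, against 1.01 with vehicle, and the combination was 4.05-fold above ATRA alone.

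Of the 3 late small subunit genes, 0 were past 2-fold against vehicle, and with SAHA they stood at 0.64 for Bysl, -0.64 for Nob1 and -0.55 for Ltv1. Bysl, the mammalian counterpart of a yeast export and assembly factor, was at 1.13 FPKM with ATRA, 3.07 with SAHA and 3.62 with both, against 1.61 with vehicle. The combination was 3.19-fold above ATRA alone. Bysl overlaps Ccnd3 on the opposite strand by 361 bases, and Ccnd3 stood 0.96 higher with SAHA on the log2 scale. Nob1, the nuclease that makes the final small subunit cut, was at 4.86 FPKM with ATRA, 3.47 with SAHA and 4.60 with both, against 5.98 with vehicle. Ltv1 was at 3.07 FPKM with ATRA, 2.12 with SAHA and 3.60 with both, against 3.57 with vehicle.

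Of the 3 genes of the PeBoW complex, which acts in large subunit rRNA maturation, 0 were past 2-fold with SAHA, at 0.63 for Bop1, -0.67 for Pes1 and -0.77 for Wdr12, and Bop1 was called higher with both. Bop1 was at 2.81 FPKM with ATRA, 6.64 with SAHA and 9.58 with both, against 3.94 with vehicle. Vehicle lay below both SAHA libraries for Bop1 and above them for its partners. Pes1 was at 5.05 FPKM with ATRA, 3.20 with SAHA and 3.86 with both, against 5.66 with vehicle. Wdr12 was at 4.65 FPKM with ATRA, 3.32 with SAHA and 4.19 with both, against 6.37 with vehicle. The level of Bop1 over that of Pes1 was 0.556 with ATRA, 2.07 with SAHA and 2.48 with both, against 0.696 with vehicle. The Bop1 gene holds Scx, on the opposite strand, over its annotated length of 2007 bases, and Scx stood lower with SAHA (-1.45) and with both (-1.34). Mroh1, also on the opposite strand, overlaps Bop1 by 50 bases and stood higher, at 0.77 with SAHA and 0.66 with both. The part of these overlaps in the Bop1 values was not tested.

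Among the 11 large subunit genes, all had a difference below 0 with SAHA, against 56.6% of all counted genes. Rrs1 and Gnl3 were called lower, where 16.0% of all counted genes were. Of the 46 other large subunit genes counted, 22 were below 0 with SAHA and 24 above, so the pattern held for these 11 only. Rrs1 brings the 5S particle into the large subunit in yeast. It was at 3.24 FPKM with ATRA, 1.27 with SAHA and 1.97 with both, against 5.50 with vehicle. Vehicle was the highest library for Rrs1 and the SAHA libraries the lowest. Gnl3 encodes nucleostemin, a nucleolar GTPase known from stem and tumour cells (chromosome 14, 31012433 to 31019152, minus strand). It was at 8.74 FPKM with ATRA, 2.96 with SAHA and 6.30 with both, against 13.1 with vehicle, 4.41-fold lower with SAHA and 2.07-fold with both. After rescaling, Nop2, Noc3l, Ebna1bp2 and Rrp1b stood above 0 with SAHA, at 0.32, 0.24, 0.09 and 0.03.

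Nop2, an rRNA methyltransferase, was at 4.80 FPKM with ATRA, 7.32 with SAHA and 11.4 with both, against 7.92 with vehicle. The combination was 2.38-fold above ATRA alone. Noc2l, a nucleolar inhibitor of histone acetylation as well as an assembly factor, was at 16.0 FPKM with ATRA, 10.2 with SAHA and 17.5 with both, against 15.5 with vehicle. Brix1, at the low end, was at 1.23 FPKM with ATRA, 0.893 with SAHA and 1.25 with both, against 1.53 with vehicle. Nop16, Ebna1bp2, Noc3l, Nip7, Mrto4 and Rrp1b lay between -0.59 and 0.11 in the comparisons with vehicle.

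Of the 3 enzyme and coregulator genes, 0 were past 2-fold in the comparisons with vehicle. Ddx21, a helicase that links polymerase I and polymerase II transcription, was at 8.86 FPKM with ATRA, 12.3 with SAHA and 11.6 with both, against 12.05 with vehicle. ATRA alone was the low library there. Nat10, an RNA cytidine acetyltransferase, was at 2.68 FPKM with ATRA, 2.28 with SAHA and 3.22 with both, against 3.65 with vehicle. Mybbp1a, a nucleolar corepressor, was at 6.95 FPKM with ATRA, 3.89 with SAHA and 7.24 with both, against 8.24 with vehicle, with a difference of -0.92 for SAHA.

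**Figure D3:**
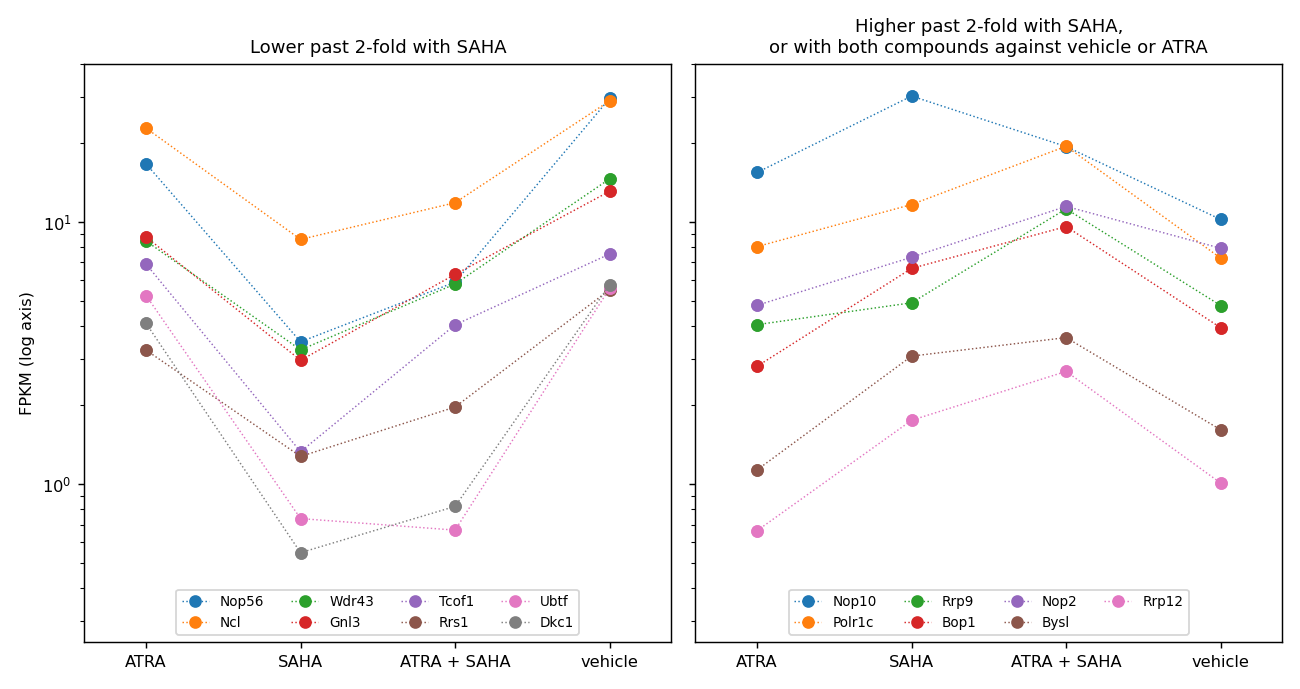
FPKM on a log axis in each of the 4 libraries (ATRA, SAHA, both and vehicle), for the 8 genes called lower with SAHA at left and for 7 genes called higher with SAHA, or with both compounds against vehicle or against ATRA, at right. Each point is 1 library and the dotted lines only link the points of a gene. At left the SAHA and combination points of each gene lie below its ATRA and vehicle points, at 0.547 to 8.56 FPKM with SAHA. At right ATRA is the lowest library for Rrp9, Bop1, Nop2, Bysl and Rrp12.

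SAHA was measured a second time in the presence of ATRA, in a pair of libraries (both compounds against ATRA alone) that shares none with SAHA against vehicle. In that pair, 3 of the 47 genes (6.38%) were called lower, against 11.9% of all counted genes, and 6 (12.8%) higher, against 10.5%. Ubtf, Nop56 and Dkc1 were lower in both pairs, with differences of -1.92, -2.77 and -2.12 without ATRA and of -1.90, -1.36 and -1.48 with it. Lower in both pairs were thus 6.38% of the 47, against 9.32% of all counted genes. They were 37.5% of the 8 genes lower without ATRA, where 58.1% of all 1381 such genes were also lower with ATRA. The genes higher in that pair were Bop1, Rrp9, Polr1c, Rrp12, Bysl and Nop2. Across the 47 genes the differences of the pairs had a Spearman's rho of 0.82, and across all counted genes it was also 0.82. This is a description across genes, which share the libraries and are not independent. Of the 47, 20 (42.6%) lay below 0 without ATRA and above 0 with it, against 13.7% of all counted genes. That count depends on the scaling: it was 16 (34.0%, against 8.64%) after centring and 10 (21.3%, against 4.22%) after rescaling.

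ATRA likewise was measured without SAHA and with it. Against SAHA alone, the combination had 2 of 47 genes (4.26%) called higher, Tcof1 and Rrp9, against 3.04% of all counted genes, and 0 called lower, against 0.929%. The median was 0.42, against 0.14 for all counted genes, with 40 of 47 above 0 (85.1%, against 66.7%). Of the 124 other ribosome biogenesis genes counted, 111 (89.5%) were above 0, with a median of 0.30. This direction depends on the scaling. After rescaling without small RNAs and the 10 highest rows, 15 of 47 were above 0 and the median was -0.08, while that of all counted genes was -0.33, so the list stood 0.26 above all genes, and 0.28 above them without rescaling.

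In the deposited scaling, some genes were lower with ATRA alone and higher with ATRA in the presence of SAHA. Nop56, Nop58, Nolc1, Wdr43, Nop2 and Gnl3 were lower by 0.5 or more in ATRA against vehicle and higher by 0.5 or more in the combination against SAHA, which is 6 of 47 (12.8%), against 0.638% of all counted genes. That mark was chosen after the values were seen. Nop58 had differences of -0.66 and 0.86, Gnl3 of -0.53 and 0.88 and Nolc1 of -0.62 and 0.73. The reverse held for Nop10, at 0.55 and -0.61. The higher side of this pattern depends on the scaling. After rescaling, 0 of the 6 reached 0.5 in the combination against SAHA, with 0.35 for Gnl3, 0.23 for Nop58, 0.08 for Nop56 and -0.02 for Nop2.

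The combination's difference from vehicle minus the sum of the ATRA and SAHA differences measures the departure from additivity. It was above 0 for 46 of 47 genes (97.9%), against 64.9% of all counted genes, with a median of 0.64 against 0.15. Of the 124 other ribosome biogenesis genes counted, 114 (91.9%) were also above 0, with a median of 0.49. The departure was 1 or more in size for 10 of the 47 genes (9 above and 1 below). Of all counted genes, 4.69% passed in the upper direction and 1.73% in the lower. Nop58 led at 1.52, followed by Nop56 and Gnl3 at 1.41, Wdr43 at 1.40, Nolc1 at 1.36, Rrp9 at 1.24, Tcof1 at 1.23, and Nop2 at 1.20, with Rrs1 at the mark itself, and Nop10 was at -1.16. Ubtf was additive, at 0.02. After rescaling, 37 of 47 were above 0, and the list's median stood 0.45 above that of all counted genes, against 0.49 in the deposited scaling. Gnl3, Nop56, Nop58 and Wdr43 were past the mark in the upper direction under all 3 scalings.

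**Figure D4:**
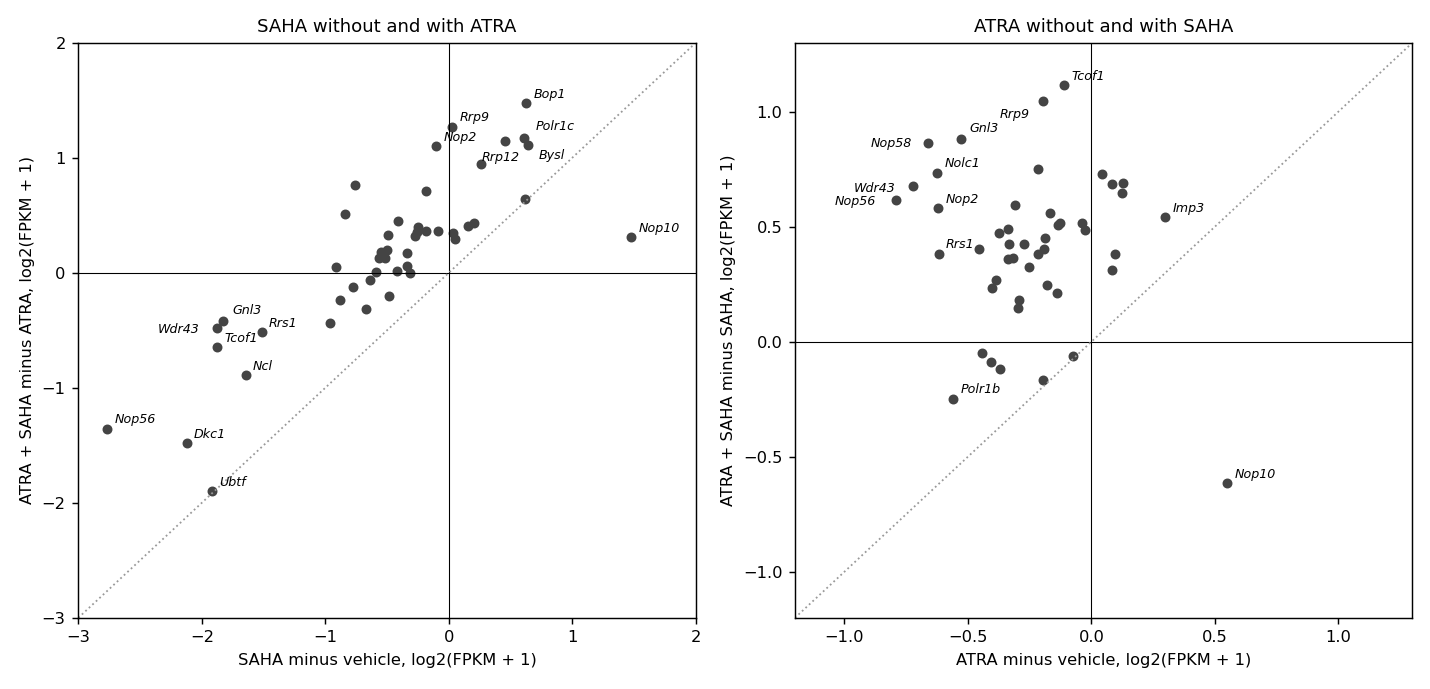
Log2(FPKM + 1) differences of the 47 counted genes, for SAHA without ATRA (x axis) and with ATRA (y axis) at left, and for ATRA without SAHA (x axis) and with SAHA (y axis) at right. Each point is a gene, each axis is 1 pair of libraries, no library is on both axes of a panel, and the dotted line marks equal differences. The height of a point over the line is its departure from additivity, which is the same quantity in both panels by construction. It is above 0 for 46 points and below 0 for Nop10, with a median of 0.64.

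Other genes of the pathway gave a wider view. Of a further 137 listed symbols, 135 were in the table and 124 were counted. With ATRA, 0 were called higher, against 0.917% of all counted genes, and 0 lower, against 1.20%. Below 0 were 93 of 124, against 50.1% of all counted genes, and the median was -0.14. The lowest named genes were Mphosph10, the partner of the IMP proteins, at 3.94 FPKM with ATRA against 7.17 with vehicle, Mki67ip at 7.08 against 11.8 and Dnttip2 at 5.01 against 8.07. The highest were Fcf1 at 9.61 FPKM against 6.24, Ruvbl2 at 10.1 against 7.92 and Gltscr2 at 21.4 against 17.9.

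With SAHA, 8 of the 124 (6.45%) were lower and 6 (4.84%) higher, against 16.0% and 7.88% of all counted genes, and their median was -0.03. Sbds, the large subunit release factor gene that is mutated in Shwachman-Diamond syndrome, was lowest, at 2.08 FPKM against 7.22 with vehicle. Aatf was at 3.01 FPKM against 8.15 and the helicase gene Ddx18 at 5.97 against 14.7. Exosc9, an RNA exosome subunit, was at 6.54 FPKM against 1.88, Pop5, a subunit of RNase P and RNase MRP, at 10.9 against 4.22 and the helicase gene Ddx49 at 5.35 against 1.85. With both compounds 15 (12.1%) were higher, close to the 11.1% of all counted genes, and 0 were lower, against 12.6%. The median was 0.26, against 0.04 for all counted genes. Pop5 was at 19.9 FPKM against 4.22 with vehicle, Exosc9 at 7.62 against 1.88 and Ruvbl2, a helicase of snoRNP assembly, at 25.6 against 7.92. At the low end were Sbds at 3.20 FPKM against 7.22, Znrd1 at 4.20 against 7.93 and Rpf2 at 3.49 against 6.06.

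Myc itself was at 26.5 FPKM with ATRA, 6.97 with SAHA and 13.1 with both, against 44.7 with vehicle. Its differences from vehicle were -0.73, -2.52 and -1.70, and its departure from additivity was 1.55. From high to low its libraries ran vehicle, ATRA, both and SAHA. In the deposited scaling the same order was seen in 11 of the 47 genes (23.4%), against 12.1% of all counted genes. Among them were Nop56, Dkc1, Ncl, Wdr43 and Gnl3. The step from SAHA up to the combination depends on the scaling. After rescaling it was -0.18 for Ncl and -0.03 for Dkc1, which then lost the order. Pes1, Wdr12, Nob1 and Rrs1 lost it too, at -0.31, -0.26, -0.21 and -0.02. The step stayed above 0 for Nop56 (0.08), Wdr43 (0.14), Gnl3 (0.35), Utp20 (0.13) and Tcof1 (0.68). No share of all counted genes in this order is given after rescaling. A part of Myc in these differences was not tested.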

How the data were processed

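Libraries were made from total RNA after removal of rRNA, per the labels' protocols. The submitters' processing notes name Trimmomatic 0.32, Cuffdiff and mm10. The sources used here do not give the aligner, the annotation, the strand setting or any scaling between libraries. The deposited values are FPKM, 1 column per library, per the file headers. From these, log2(FPKM + 1) differences were computed with pandas 2.3.3 on all 23359 rows, and genes averaging 1 FPKM or more were counted. No test was run, since each group had 1 library, and a difference of 1 or more was the rule of size.

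The members and lists were chosen with earlier results of these data known. All 48 genes could be named, as could the 3 highest and 3 lowest other ribosome biogenesis genes in each comparison with vehicle, among genes whose higher library reached 5 FPKM. Coordinates are from GENCODE M21 on mm10. Depth was estimated by taking the lowest cluster of FPKM multiplied by transcript length as single fragments. FPKM gives no counting interval, and none is printed. Of the 48 genes, 9 share the table's locus with another row that is not a small RNA. Alternatives were a pseudocount of 0.1, no filter, a mean of at least 5 FPKM, centring, rescaling without small RNAs and the 10 highest rows, and leaving out those 9 genes.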

Additional observations from a re-analysis of the deposited data

How the results depend on the processing

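No paired analysis was possible because each group has 1 library and no test was run. Of 66 recomputed counts of genes past 2-fold, 52 stayed within 1.5 times the value reported. Those 52 include counts that were 0 before and after, among them every count for ATRA against vehicle. After rescaling without small RNAs and the 10 highest rows, 4 genes were higher with SAHA against vehicle, where 17.1% of counted genes were. With both against vehicle 1 was higher, against 7.8%. With both against SAHA 0 were higher, against 1.415%, and 1 was lower, against 4.87%. Departures from additivity numbered 5, where 2.46% of counted genes departed upward and 4.94% downward. Centring left 0 higher with both against SAHA, against 2.17% of counted genes. A pseudocount of 0.1 gave 2 higher with SAHA, against 12.8% of counted genes, and 5 higher with both against vehicle, against 17.2%. With a mean of at least 5 FPKM, which 19 genes of the list reached, 4 were lower with SAHA, against 20.15% of genes at that mean. With both against vehicle 3 were lower, against 13.8%. With both against SAHA 1 was higher, against 5.58%, and with both against ATRA 1 was lower, against 14.2%. Fewer genes were counted there. Without the genes that share a locus, 5 were lower with SAHA and 1 lower with both against ATRA, over 38 genes. The shares of all counted genes were 16.0% and 11.9%. The list's median ranged from -0.36 to -0.21 for ATRA, -0.54 to -0.07 for SAHA, -0.17 to -0.00 for both against vehicle and -0.08 to 0.65 for both against SAHA, and the cause was not tested. With 1 library per group, variation between cultures cannot be told apart from treatment.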

Other observations

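Small nucleolar RNA rows inside the loci of these genes gave few values. The table held 10, inside the loci of Nop56, Nop58, Ncl, Wdr43 and Gnl3. Snord11, Snord53, Snord92, Snord19 and Snord69 were listed at 0 in all 4 libraries. Snord110, inside Nop56, was at 46.6 FPKM with both compounds and listed at 0 in the other libraries. Snord57, also inside Nop56, was at 16.4 FPKM with ATRA and 15.9 with both, and listed at 0 with SAHA and with vehicle. Snord70, inside Nop58, was at 87.0 FPKM with vehicle and listed at 0 in the treated libraries. Snord82 and Snora75 lie inside Ncl. Snord82 was at 14.8 FPKM with SAHA and 12.5 with vehicle, and listed at 0 in the others. Snora75 was at 4.34 FPKM with ATRA and 6.13 with SAHA, listed at 0 with both, and at 2.15 with vehicle. The 10 transcripts are 68 to 133 bases long, and an exact 0 of so short a row is given only as listed, with no fold.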
